A study of Mus musculus with 2 samples.

Results

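Glycolysis, lactate and pentose phosphate genes were compared between regulatory T cells (Tregs) of mice that carry a dominant negative receptor for the cytokine TGF-beta and Tregs of wild-type mice. The set was 33 genes chosen by name, from the glucose transporters to pyruvate dehydrogenase and the pentose phosphate enzymes. Probe sets that the platform annotation gives to exactly 1 gene covered 30 of the 33, out of 18194 genes with such probe sets on the array. Gpi1, Eno1 and G6pdx had none in that annotation and are not analysed here. RNA of CD4+Foxp3+ cells, sorted from the spleens of naive 10-week-old C57BL/6 animals, was hybridised to Affymetrix mouse arrays with 1 array per group. One group was DNR, that is, mice with a dominant negative TGF-beta receptor II, and the other was WT. The promoter that drives the DNR transgene, the sex of the mice and the number of mice behind each RNA are not stated in the labels. With 1 array per genotype no test is possible, and each difference below is between these RNA samples, with no replicate check and no p-value.

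Glycolysis splits glucose into pyruvate in the cytosol and yields ATP without oxygen. Pyruvate is then reduced to lactate and exported, or it enters mitochondria, where the pyruvate dehydrogenase complex turns it into acetyl-CoA under the control of inhibitory kinases. The pentose phosphate pathway branches from glucose 6-phosphate and supplies NADPH and ribose for nucleotides. Activated and dividing T cells are known for high glycolytic enzyme expression, and Foxp3 is known to restrain glycolysis in Tregs.

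Signals are MAS5 intensities on a linear scale, and log2 ratios are DNR over WT. Values below a floor of 110.9, the higher of the arrays' medians, were set to the floor, so a gene above it on 1 array has a ratio that is only a bound. Each gene is given by its brightest probe set, judged by the mean of both arrays. Over 3969 genes with several probe sets that exceeded the floor on both arrays, 1 probe set's log2 ratio had a robust SD of 0.36. It describes disagreement between probe sets and contains no variation between mice or sorts.

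Of the 30 genes with a probe set, 28 were measured, that is, above the floor on at least 1 array. Their differences were small. Pfkfb4 alone was at least 2-fold higher in DNR cells, against 4% of the 11928 measured genes of the array, and Pfkm alone was lower by at least 2-fold, against 2.93%. At 1.5-fold, 4 of the 28 were higher (12.8% of all measured genes) and 3 were lower (9.85%), so both counts lay near the background. In any size, 17 of the 28 had a higher DNR signal, against 51.4% of all measured genes, and 11 a lower one, against 48.6%. The median log2 ratio was 0.18 over the 28 and 0.14 over the 26 above the floor on both arrays. Over all measured genes it was 0.01. The ratio exceeded the robust SD of a probe set in 8 genes that were higher and 4 that were lower, while 16 lay within it. For all measured genes, 22.5% were higher and 19.5% lower by more than that SD.

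The trunk of glycolysis and the genes at its exits, a division chosen after the values were seen, had medians on different sides of 0. From the glucose transporters to pyruvate kinase, 13 of 18 measured genes had a higher DNR signal, with a median log2 ratio of 0.30. Among the lactate, pyruvate dehydrogenase and pentose phosphate genes 4 of 10 were higher, with a median of -0.18. Of all measured genes 51.4% were higher. Probe sets of Slc2a1 and Pfkl in the trunk, and of Ldhb, Pdk1, Pgd and Tkt outside it, did not share a direction. The difference between the trunk and the other genes was not tested. The directions of the genes depend on the scaling of the arrays. The 24 probe sets for poly-A RNA added as a spike-in were brighter on the DNR array by 0.37 (log2) at the median, and with the arrays scaled on them 8 of the 28 genes were higher, 7 of them in the trunk. That scaling moved the median of all measured genes from 0.01 to -0.34, and 13 of the 18 trunk genes and 3 of the other 10 lay above that median. As reported, 13 and 4 lay above the median of 0.01. Multiplying an array by 1 factor hardly alters such positions, so these counts are no check of the division. In the same scaling the signals of Slc2a1, Slc2a3, Pfkl, Pfkp, Aldoa, Gapdh, Ldha, Ldhb and Tkt turned from higher to lower.

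**Figure D1:**
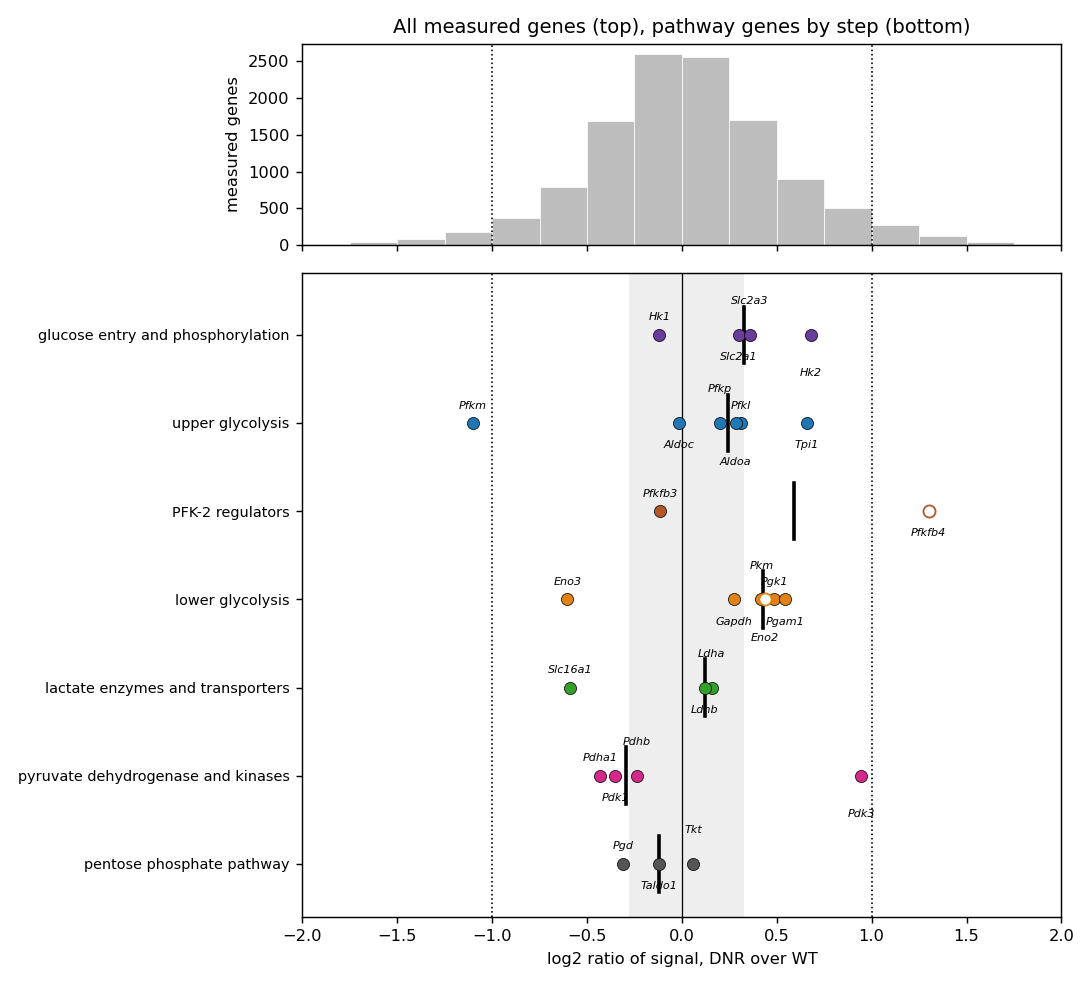
Log2 ratio of the DNR over the WT signal (x axis, no unit) for all 11928 measured genes (top, number of genes per bin) and for the 28 measured pathway genes by step (bottom; 1 point per gene, open where the ratio is a bound, black bars for the median of a step, grey band for the interquartile range of all measured genes, dotted lines at 2-fold). Points of the trunk lie mostly right of 0 and those of Pdha1, Pdhb and Pdk1 left of it; with the arrays scaled on poly-A spike-ins 7 of the 18 trunk genes are right of 0.

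Promoter sequences are shown for Pgk1 and Tpi1, as trunk genes whose probe sets were all higher in DNR Tregs, for Pfkfb4, whose bound was above 2-fold, and for the kinase genes Pdk1 and Pdk3, which differed in opposite directions. Each is the 250 bases before the annotated start, from RefSeq on GRCm38.p6, and 29 of the 30 genes with probe sets had such a window (Slc2a3 had none). Capitals mark ACGTG and GCGTG, the core letters of the hypoxia response element bound by HIF-1, on either strand, where they read CACGT and CACGC. The windows are chrX:106186850-106187099 on the plus strand for Pgk1, chr6:124814159-124814408 on the minus strand for Tpi1, chr9:108991652-108991901 on the plus strand for Pfkfb4, chr2:71872974-71873223 on the plus strand for Pdk1 (the first of its 2 windows) and chrX:93832151-93832400 on the minus strand for Pdk3.
Pgk1: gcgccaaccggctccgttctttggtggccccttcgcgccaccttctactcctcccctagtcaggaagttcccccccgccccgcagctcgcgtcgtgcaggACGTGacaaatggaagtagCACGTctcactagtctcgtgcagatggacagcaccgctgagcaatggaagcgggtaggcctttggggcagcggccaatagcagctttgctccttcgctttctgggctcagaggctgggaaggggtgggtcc
Tpi1: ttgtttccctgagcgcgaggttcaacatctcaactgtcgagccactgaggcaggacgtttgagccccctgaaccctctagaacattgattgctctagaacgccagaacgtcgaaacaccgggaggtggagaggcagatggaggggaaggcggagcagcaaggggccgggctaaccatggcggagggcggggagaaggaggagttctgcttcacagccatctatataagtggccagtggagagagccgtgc
Pfkfb4: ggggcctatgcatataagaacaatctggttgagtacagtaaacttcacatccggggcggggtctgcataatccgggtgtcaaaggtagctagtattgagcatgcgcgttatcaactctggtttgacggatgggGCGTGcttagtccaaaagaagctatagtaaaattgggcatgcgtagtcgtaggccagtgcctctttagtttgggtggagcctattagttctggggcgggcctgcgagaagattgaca
Pdk1: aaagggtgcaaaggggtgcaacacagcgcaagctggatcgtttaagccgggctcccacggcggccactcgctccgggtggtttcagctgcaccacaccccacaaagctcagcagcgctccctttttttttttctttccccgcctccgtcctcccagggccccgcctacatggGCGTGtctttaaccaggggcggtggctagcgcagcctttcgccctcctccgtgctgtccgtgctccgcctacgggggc
Pdk3: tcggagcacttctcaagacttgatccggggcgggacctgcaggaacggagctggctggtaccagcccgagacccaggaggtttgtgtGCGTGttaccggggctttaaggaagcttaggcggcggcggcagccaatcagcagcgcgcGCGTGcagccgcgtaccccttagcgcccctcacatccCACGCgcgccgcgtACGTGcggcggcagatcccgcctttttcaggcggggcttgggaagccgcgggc
Pgk1 held 2 matches to ACGTG, Pfkfb4 and Pdk1 each 1 to GCGTG, and Pdk3 4 in all, while Tpi1 held none. Matches were thus present in genes of both directions. Over all measured members, 31 of 39 windows (79.5%) held ACGTG or GCGTG, against 54.2% of the windows of all measured genes and 38.6% of all windows. The longer E-box CACGTG, which contains ACGTG, was in 4 of the 39 (10.3%, against 7.89% of windows of measured genes), and the GC box GGGCGG in 20 (51.3%, against 55.3%). The median GC content was 60.4% in the 39 windows and 59.2% in those of all measured genes. Windows of 1 gene can overlap, and a match is only a description of these letters.

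Glucose enters T cells mainly through the transporters GLUT1 (Slc2a1) and GLUT3 (Slc2a3). Slc2a3 had a signal of 7552 on the DNR and 5896 on the WT array, 1.28-fold higher, and a second probe set was 1.46-fold higher (4218 against 2880). Both are of the kind that can detect several transcripts (names ending in _s_at or _x_at), and another was near the floor (116 against 56.5). Slc2a1 had 5220 against 4243, a 1.23-fold difference, but its other probe sets gave 2638 against 2872 and 1234 against 1182. Its probe sets therefore did not share a direction. Hexokinase then traps glucose as glucose 6-phosphate. Hk2, the inducible hexokinase, had 545 against 341 and was 1.60-fold higher on its only probe set. Hk1, the constitutive form, had 2156 against 2342, a log2 ratio of -0.12 within the disagreement between probe sets.

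Phosphofructokinase commits sugar to glycolysis, and its 3 subunit genes differed. Pfkp, the platelet-type subunit, had 3132 against 2723 (1.15-fold higher), with a second probe set at 180 against 130 and another at 101 against 126, across the floor. Pfkl, the liver-type subunit, had 380 against 307 on its brightest probe set, 240 against 245 on the second and 172 against 295 on the third, so no direction holds for it. Pfkm, the muscle-type subunit, had 201 against 432 on its only probe set. It was 2.15-fold lower in DNR Tregs, the lowest ratio among the 28 genes (-1.10).

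The bifunctional enzymes of the PFKFB family set the level of fructose 2,6-bisphosphate, the activator of phosphofructokinase. Pfkfb4 had a signal of 273 on the DNR array and 109.1, just below the floor, on the WT array. It was at least 2.46-fold higher, and its log2 ratio was 0.71 when the floor was raised to the 60th percentile of the signals, 167.2. Pfkfb3, the isoform best known in activated cells, had 607 against 657, a log2 ratio of -0.11.

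Aldolase and triose phosphate isomerase make and interconvert the triose phosphates. All 5 probe sets of Aldoa were higher on the DNR array, from 1.18-fold to 1.37-fold, with 5362 against 4405 on the brightest. Each of the 5 is of the kind that can detect several transcripts, and with the arrays scaled on poly-A spike-ins Aldoa had a log2 ratio of -0.09. Aldoc, the brain-type aldolase, differed by 1.01-fold (509 against 514). Its second probe set was just above the floor on the DNR array alone (114.5 against 18.5). Tpi1 had 2777 against 1760, 2513 against 1547 and 2169 against 1088 on its probe sets, which were 1.58-fold, 1.62-fold and 1.99-fold higher. The 3 shared a direction, and the gene was higher in each of 8 other settings, with the lowest log2 ratio, 0.28, under poly-A scaling.

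From Gapdh to Pkm 5 of 6 measured genes had a higher DNR signal, against 51.4% of all measured genes. With poly-A scaling 4 of the 6 did, against 25.6%. Gapdh, which makes NADH and is often used as a reference gene, was measured with single gene names only by its 3 control probe sets. The 3′ one had 13954 against 11557, the middle one 6370 against 5902 and the 5′ one 6125 against 5580, so they were 1.21-fold, 1.08-fold and 1.10-fold higher. The ratio of the 3′ to the 5′ signal, which increases as RNA is degraded, was 2.28 on the DNR and 2.07 on the WT array. For Actb it was 6.31 and 4.98, and its part in the differences was not tested.

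Pgk1, the kinase that makes the first ATP of the trunk, had 10561 against 7542 (1.40-fold higher). A second probe set was 2.17-fold higher (6114 against 2823), but the one probe set that is not marked as binding several transcripts was 1.08-fold higher (6789 against 6283). The size of the Pgk1 difference thus depended on the probe set. Pgam1, phosphoglycerate mutase, had 2506 against 1722 (1.46-fold higher), and Pkm, pyruvate kinase, 1413 against 1057 (1.34-fold higher). Of the enolases, Eno3, the muscle form, was 1.52-fold lower (615 against 935) and Eno2, the neuronal form, had 150.1 against 104.4, at least 1.35-fold higher and close to the floor. Pfkm and Eno3, known as muscle-type isoforms, were the only trunk genes lower by more than the robust SD of a probe set.

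**Figure D2:**
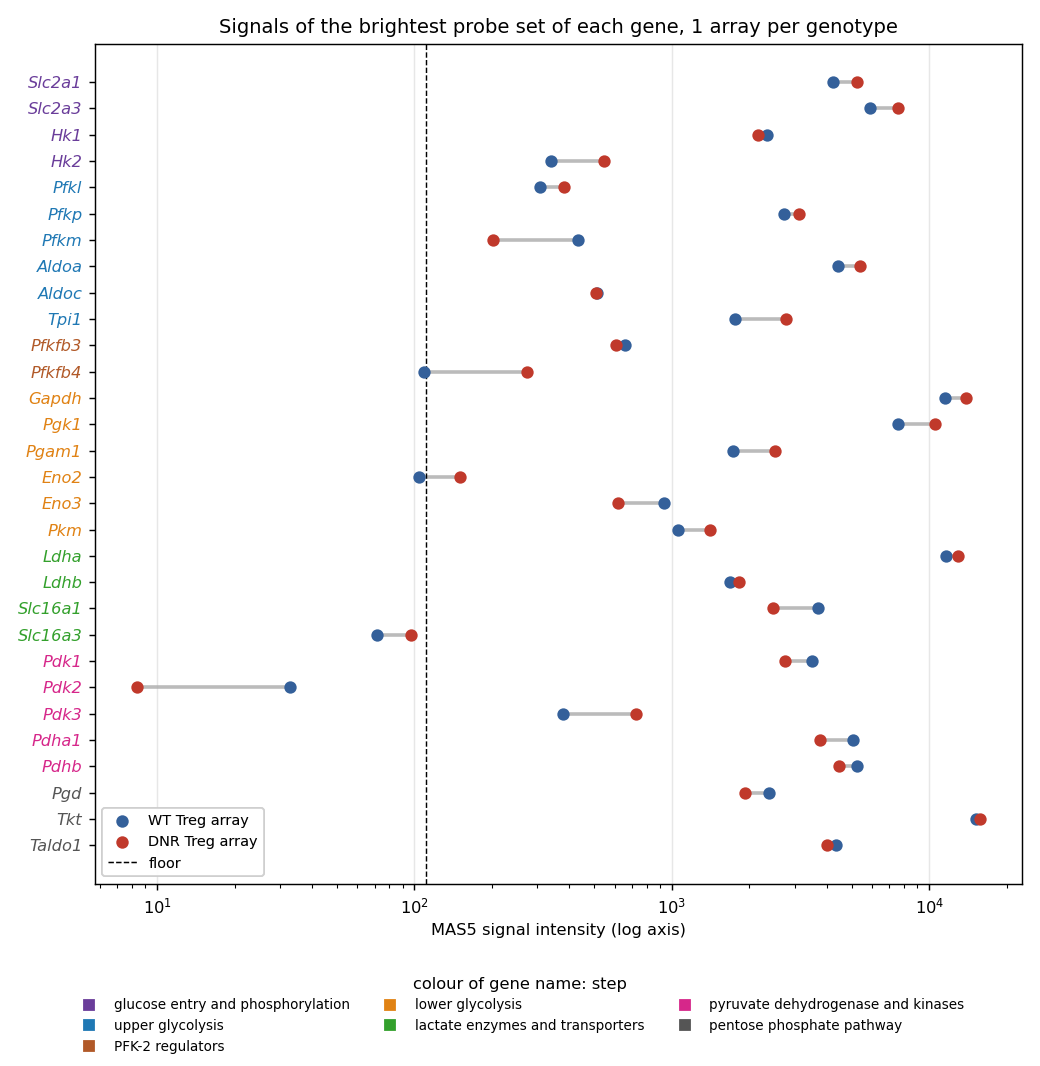
MAS5 signal (log axis) of the brightest probe set of each of the 30 genes on the DNR array (red) and the WT array (blue), 1 array each, with the floor of 110.9 as a dashed line; gene names are coloured by step. Pfkfb4 and Eno2 cross the floor on the DNR array only, Slc16a3 and Pdk2 lie below it on both arrays, and red points lie right of blue ones for Hk2, Tpi1, Pgam1, Pkm and Pdk3.

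Lactate dehydrogenase and the monocarboxylate transporters carry out lactate formation and export. Ldha, the subunit favoured in glycolytic cells, had 12973 against 11639, a 1.11-fold higher signal and well within the disagreement between probe sets. Ldhb, the subunit of oxidative tissues, had probe sets on both sides: 1830 against 1684 and 1873 against 1610, but 1493 against 2017 and 983 against 1741. No direction holds for it. Slc16a1, the lactate transporter MCT1, had 2463 against 3706, a log2 ratio of -0.59. Its second probe set was above the floor on the DNR array alone (237 against 30.1, at least 2.14-fold higher), so the median over both gave 0.25. Slc16a3, the transporter MCT4 of highly glycolytic cells, was not above the floor on either array (97.2 against 71.5).

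Both E1 genes of the pyruvate dehydrogenase complex had lower signals on the DNR array, by less than 2-fold. Pdha1, its E1 alpha subunit, had 3770 against 5079 and 972 against 1472 on its probe sets (1.35-fold and 1.51-fold lower). Pdhb, the E1 beta subunit, had 4445 against 5241 and 145 against 201 (1.18-fold and 1.39-fold lower). All 4 probe sets thus pointed one way, and both genes were lower in each of 8 other settings. Several of those settings could not have turned them. Moving the floor to the 40th or 60th percentile left both ratios unchanged, and poly-A scaling lowers every DNR signal. Of the other subunits, Dlat (E2) had 800.5 against 663.1 and Dld (E3) 1581 against 1198, both higher on the DNR array, and Pdhx was nearly level at 217 against 223. The kinases that switch the complex off differed from each other. Pdk1 had 2749 against 3510, 2153 against 3683 and 422 against 1156 on its brightest probe sets, which were 1.28-fold, 1.71-fold and 2.74-fold lower, whereas the fourth and dimmest was 1.64-fold higher (241 against 147). That spread of 2.17 in log2 ratio was the widest among the 14 genes that had more than 1 probe set above the floor on each array. Pdk3 had 728 against 378 on its only probe set, 1.93-fold higher. Pdk2 was not above the floor on either array (8.373 against 32.996).

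On their brightest probe sets the 3 measured pentose phosphate genes differed by 1.24-fold or less, and G6pdx was not analysed. Of the 7 probe sets of the measured genes above the floor on both arrays, 5 were lower on the DNR array and 2 higher. Tkt, transketolase of the non-oxidative branch, had 15793 against 15150 on a probe set that can detect several transcripts and 2414 against 2988 on another, so its direction was not settled. Taldo1, transaldolase, had 4017 against 4362, a log2 ratio of -0.12. Pgd, which makes NADPH and ribulose 5-phosphate, had 1928 against 2393 on its brightest probe set (1.24-fold lower), and 3 of its 4 probe sets were lower. The largest of these, 1.64-fold (645 against 1058), came from the only one whose name does not end in _s_at or _x_at.

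**Figure D3:**
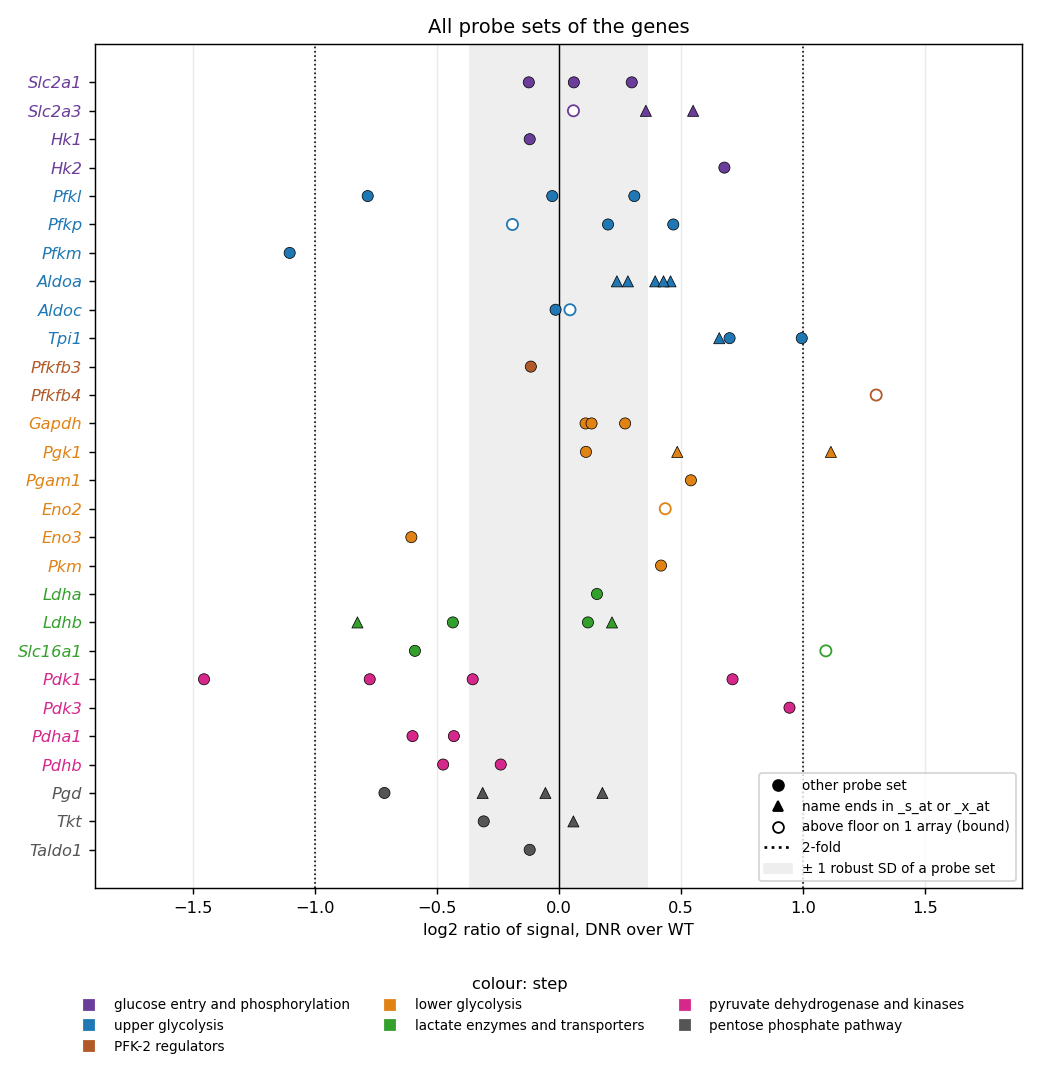
Log2 ratio of the DNR over the WT signal (x axis) for every probe set above the floor on at least 1 array (points; triangles for names ending in _s_at or _x_at, open symbols for bounds, colours for steps), with a grey band of 1 robust SD of a probe set (0.36) and dotted lines at 2-fold. All probe sets of Aldoa, Tpi1, Gapdh and Pgk1 lie right of 0 and all of Pdha1 and Pdhb left of it, while those of Pfkl, Ldhb, Pdk1 and Pgd lie on both sides.

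Of the 66 probe sets of these genes, 54 were above the floor on both arrays, 31 of them higher and 23 lower on the DNR array, with a median log2 ratio of 0.12. For all 15747 named probe sets that exceeded it on both arrays the median was -0.02, and 47.5% were higher, against 57.4% of the 54. The kinds of probe set differed here, without a test of that difference. They were spread unevenly over the genes, so these counts cannot separate the kind of probe set from the gene. Of 16 with names ending in _s_at or _x_at, all 5 of Aldoa among them, 13 were higher (median 0.32). Of the other 38, 18 were higher (median -0.02). The same medians over all such probe sets of the array were 0.04 and -0.04. Among the 14 genes with more than 1 such probe set, all were higher in 6 genes, all lower in 2 and mixed in 6.

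The other genes of the same pathways did not share a direction. Of 47 listed, 31 were measured, 13 higher and 18 lower, none by 2-fold, and their median was -0.04. Their brightest members were Prps2, a synthetase of phosphoribosyl pyrophosphate (2916 against 3894, 1.34-fold lower), and Rpia, the ribose 5-phosphate isomerase (3140 against 2953, 1.06-fold higher). Adpgk, an ADP-dependent glucokinase named after its value was seen, had 951 against 491, but a second probe set had 352 against 422. Regulators that act on glycolysis were evenly split, with 12 of 24 measured genes higher and a median of 0.01. Hif1a, the oxygen-regulated subunit of HIF-1, had 19606 against 14262 and was 1.37-fold higher, and its other probe sets were higher as well (2323 against 1684 and 389 against 178). Its partner Arnt had 1669 against 702, 2.38-fold higher, and another probe set was above the floor on the DNR array alone (229 against 27.5), but one that can detect several transcripts had 596 against 867. With poly-A scaling the log2 ratio was 0.09 in place of 0.46 for Hif1a and 0.88 in place of 1.25 for Arnt. Txnip, an inhibitor of glucose uptake, had 8605 against 8371 on its brightest probe set and 432 against 577 on the other.

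The labelled cell type was checked against its markers, of which Foxp3, the defining transcription factor, had 4550 on the DNR and 3754 on the WT array, and all 8 Treg and 7 of 7 T cell markers with a probe set were above the floor on both arrays. Of the 8 Treg markers 5 were higher and 3 lower on the DNR array: Izumo1r (1734 against 3515, the only one past 2-fold), Nrp1 (5809 against 8798) and Il2ra (3969 against 4591). Other gene groups differed alongside the pathway genes, and their part in these differences was not tested. Cell cycle genes were higher in 17 of 19 measured cases, 12 by at least 2-fold, with summed signals of 62169 on the DNR and 42689 on the WT array. The 12 were Mki67, Top2a, Ccnb2, Ccna2, Cdk1, Aurkb, Birc5, Bub1, Cdc20, Plk1, Kif11 and Rrm2, from 2.14-fold (Top2a) to 4.88-fold (Aurkb). Macrophage and monocyte markers were lower in 8 of 8 measured cases (summed 3939 against 5867), C1qa, C1qc and Vcam1 by at least 2-fold, with Cd14 and Cd163 below the floor on both. Neutrophil markers were measured in 4 of 8 cases (summed 1408 against 686). Of these, 3 were at least 2-fold higher (Mmp9, and S100a8 and Ngp as bounds), while Elane was lower (173 against 238). S100a9, Camp, Ltf and Mpo were below the floor on both arrays. Of 7 erythroid markers with a probe set 5, Hba-a1, Alas2, Slc4a1, Epb42 and Rhag, were below the floor on both arrays (summed over the 7, 594 against 579). Among B cell markers Cd79a, Pax5 and Blnk were below it on both, but Cd22 was 2.74-fold higher (444 against 162), and the list summed to 1479 against 1015. The CD8 T and NK cell lists together summed to 889 against 775, with 3 of 5 higher. Cd8a, Klrd1 and Ncr1 were higher and Cd8b1 and Klrk1 lower, Ncr1 and Klrk1 as bounds. The dendritic cell list (3 of 6 measured) summed to 3105 against 3257. Most of that sum was H2-Aa (2722 against 3011). Itgax (120 against 9.29) and Siglech (157 against 82.9) were above the floor on the DNR array alone. Fewer cells of a type and less RNA per cell cannot be told apart in bulk RNA.

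In 23 of the 28 measured genes the direction was the same in each setting other than poly-A scaling that gave a value, of 7 run, with 14 higher and 9 lower. The 5 exceptions were Aldoc, Ldhb, Pfkl, Slc16a1 and Tkt. Not every setting could turn a gene, as moving the floor does not change a ratio that stays above it on both arrays.

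**Figure D4:**
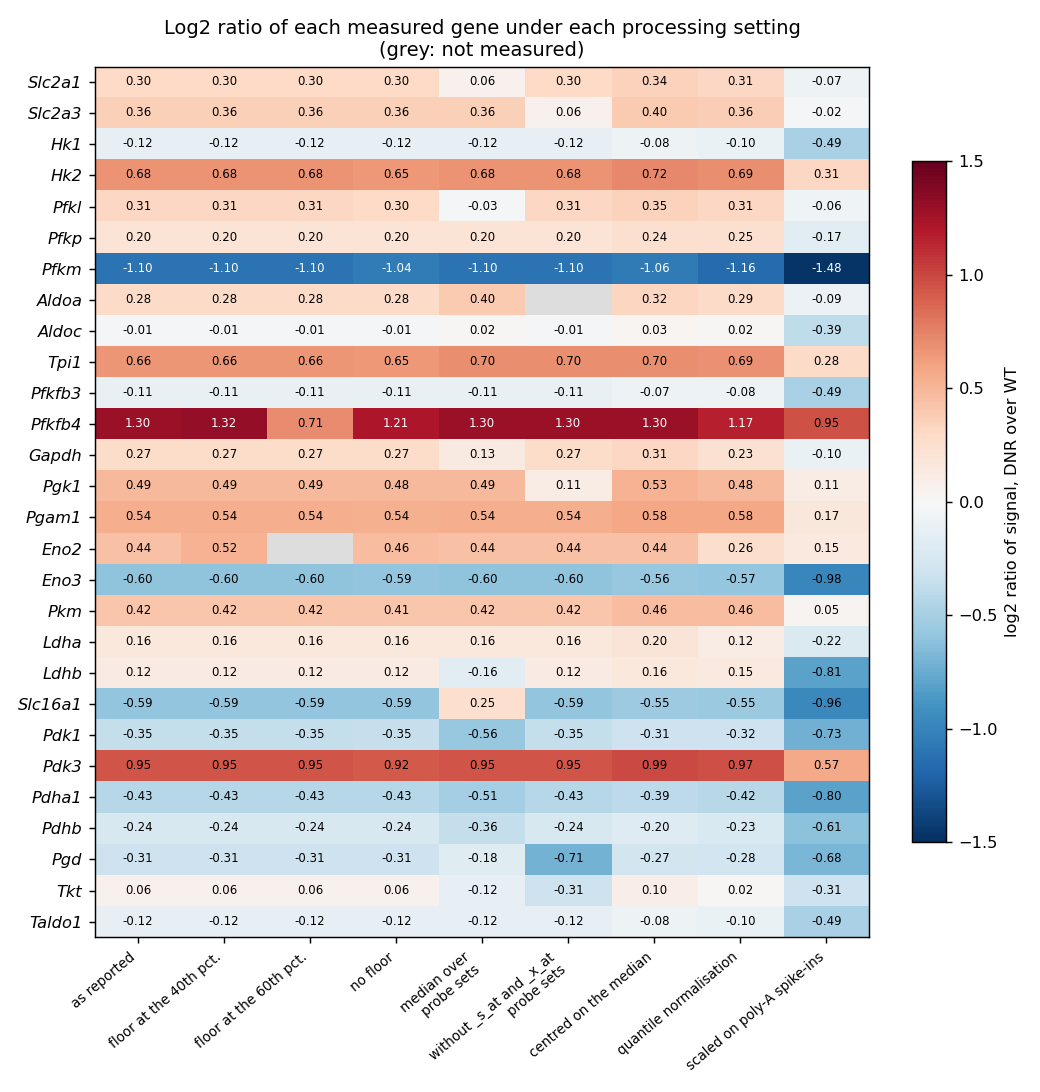
Log2 ratio of the DNR over the WT signal for each of the 28 measured genes (rows) as reported and under 8 other settings (columns; red higher and blue lower in DNR Tregs, grey not measured). Pfkm stays between -1.48 and -1.04, Tpi1 between 0.28 and 0.70 and Pdk3 between 0.57 and 0.99 over the other settings, whereas scaling on poly-A spike-ins turns 9 genes.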

How the data were processed

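Signal intensities of 2 arrays, 1 of DNR and 1 of WT Tregs, were deposited by the authors as 1 linear value per probe set, computed with MAS5 per the submitters' processing notes. Scaling and detection calls are not described there, but both arrays had a mean of 500.0 without the highest and lowest 2% of values. Such scaling multiplies background with signal. Of 45101 probe sets, 34958 had exactly 1 gene name in the platform annotation, 932 had several and 9211 none. All 33 symbols were current in RefSeq. The floor was taken over the 45037 probe sets that are not controls. It was applied before log2. Gapdh has single-gene names only on control probe sets, which were therefore kept.

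The named genes are all members, the genes of the other lists that were at least 2-fold different, and the 2 brightest of the other pathway genes and of the regulators. Adpgk, the other pyruvate dehydrogenase subunits and 3 Treg markers (Foxp3, Nrp1 and Il2ra) were named besides, after their values were seen, as were markers below the floor. So were Elane, Cd79b, Ms4a1 and the CD8 T and NK cell and dendritic cell markers given. The members and lists, including those of cell type markers, were chosen with earlier results of these data known. Alternatives were the floor at the 40th or 60th percentile, no floor (pseudocount 16), the median over probe sets, leaving out _s_at and _x_at probe sets, centring, quantile normalisation, a threshold of 1.5-fold and, chosen after seeing the data, scaling on poly-A spike-ins. Precision is limited by the number of arrays. The procedure was tested on simulated data (Python 3.11.15, numpy 2.4.6, pandas 2.3.3).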

Additional observations from a re-analysis of the deposited data

How the results depend on the processing

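The number of members at least 2-fold higher, 1 as reported (Pfkfb4), was 4 at a threshold of 1.5-fold, 0 when the floor was the 60th percentile and 0 with scaling on poly-A spike-ins. The number at least 2-fold lower, 1 as reported (Pfkm), was 3 at 1.5-fold and 2 with no floor, where Pdk2, below the floor on both arrays, was added. With scaling on poly-A spike-ins, an alternative chosen after seeing the data, the members with a higher DNR signal numbered 8 in place of 17 and their median log2 ratio was -0.19 in place of 0.18, while the share of all measured genes with a higher signal was 25.6% in place of 51.4%. Scaling an array by 1 factor hardly alters the members' median minus that of all measured genes. This difference was 0.14 in that scaling and 0.16 as reported. It was 0.0737 when the probe sets of a gene were combined by their median and 0.11 without _s_at and _x_at probe sets, under which Aldoa had no probe set left. Hybridisation spike-ins had a median ratio of 1.95 (DNR over WT, 18 of 18 probe sets higher). Of 222 log2 ratios of single genes under other settings, 31 moved by more than the robust SD of a probe set (0.363). Poly-A scaling by itself shifts most ratios by 0.373. The only differences of at least 2-fold, Pfkfb4 and Pfkm, did not change sign. Smaller ones did, in 5 genes under settings other than poly-A scaling and in 9 under it. Signals near the floor (Pfkfb4, Eno2) limit the ratio to a bound. No paired analysis was possible because the labels give no replicate numbers and each genotype has 1 array.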
